A study of Danio rerio with 6 samples.

Results

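The cytochrome P450 genes of the zebrafish head were examined in *tulp1*-dKO larvae and in wt larvae. Every listed gene whose name is cyp followed by a digit was taken, in upper or lower case, and 87 of 32520 listed genes matched. Of these, 70 averaged 0.5 TPM or more across all 6 samples and were kept as members, among 22824 genes that passed the same limit. TPM divides the reads of a gene by its length and sets the total of each library to 1000000, so levels can be compared between genes. The members fall into 17 CYP families, and the 5 genes of the *cyp2p* cluster were set apart from the 65 others.

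RNA was taken from dissected heads of larvae at 4 days post-fertilization (dpf), strain AB. The *tulp1*-dKO group has 3 samples, in which both *tulp1a* and *tulp1b* are knocked out. Each gene carries 1 frameshift allele made with CRISPR/Cas9, from 1 mutant line chosen per gene, and the lines were crossed. The wt group has 3 samples of the same strain, tissue and age. The sources used here do not say how many heads made up an RNA-seq sample or whether the samples came from separate clutches, so each p-value measures only the spread between these samples. With 3 samples against 3, an exact permutation test of a single gene cannot give a two-sided p below 0.1. The tests were therefore taken from a limma fit across all genes, with Benjamini-Hochberg adjustment over all of them.

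Cytochrome P450 enzymes are haem proteins that insert oxygen into fats, steroids, retinoids and foreign compounds. Families with low numbers mainly act on drugs, pollutants and fatty acids, and the liver is their main site in vertebrates, while most families with higher numbers each have a fixed task in steroid, bile acid, vitamin D or retinoid metabolism. In the eye and brain, P450 enzymes clear retinoic acid, remodel vitamin A, remove cholesterol and make oestrogen. Enzymes of the CYP2J, CYP2N and CYP2P subfamilies can turn arachidonic acid into epoxides, which is known from mammals and from killifish.

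*cyp2p9* and *cyp2p10* are neighbouring paralogs, and short reads may be shared between such genes. The study also measured both by qRT-PCR, and its primers are shown as the stretches it used for each gene. How well they tell the paralogs apart was not tested here. The capitals mark the 5 bases at the 3′ end of each primer, the end that polymerase extends.
*cyp2p9* forward: gtcatggatttgtgGGACC
*cyp2p9* reverse: aacactggtcgatcagCGAGG
*cyp2p10* forward: ctacttccggcagcgTATGT
*cyp2p10* reverse: actggaggccactaaaCCTCT
How the reads themselves were divided between the paralogs was not measured here, so the split of TPM within each group of neighbouring CYP2 genes is uncertain.

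The listed values summed to 945666 to 948860 TPM per sample, with 25096 to 25304 genes above 0, and the depth behind a TPM value is unknown. *tulp1b*, a targeted gene, was at 2.71, 2.01 and 2.37 TPM in *tulp1*-dKO samples 1, 2 and 3, against 13.1, 11.9 and 9.77 TPM in wt samples 1, 2 and 3 (log2 fold change −2.25, adjusted p = 0.00240). *tulp1a*, the other, was at 16.0, 14.4 and 15.8 TPM in *tulp1*-dKO and 25.3, 25.0 and 23.7 TPM in wt (log2 fold change −0.68, adjusted p = 0.0201). Over all genes, 302 passed both thresholds, an adjusted p of at most 0.05 and at least a 2-fold difference. These were 83 higher and 219 lower in *tulp1*-dKO, among them 6 of 7 rod markers and 5 of 10 cone markers, all lower. In all, 9 of the 10 cone markers had negative log2 fold changes. The cone marker *gngt2a* went the other way, with every *tulp1*-dKO sample above every wt sample (log2 fold change 1.18, adjusted p = 0.0566).

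The samples, labelled as heads, also held transcripts of liver, gut and pancreas marker genes, in unequal amounts. The 15 entries of the liver marker list were all above 0.5 TPM on average, led by *apoa2*, *apoa1b*, *fabp10a* and *rbp4*, and *serpina1* was at 0 in wt sample 3. Their sum was 3804, 6109 and 8991 TPM in *tulp1*-dKO samples 1, 2 and 3, against 5373, 7487 and 5547 TPM in wt samples 1, 2 and 3. The *tulp1*-dKO samples thus held both the lowest and the highest sum. The 10 intestine markers summed to 445, 991 and 1567 TPM in *tulp1*-dKO and to 679, 1201 and 1023 TPM in wt, and the 12 exocrine pancreas markers to 949, 2615 and 4856 TPM in *tulp1*-dKO and to 1102, 1700 and 1026 TPM in wt. In whole-head RNA, fewer cells of a type and less RNA per cell cannot be told apart.

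The P450 total moved with the sum of the liver markers. All members together reached 462, 589 and 688 TPM in *tulp1*-dKO samples 1, 2 and 3, against 560, 684 and 583 TPM in wt samples 1, 2 and 3. The 6 samples stood in the same order as by the liver sum. By the intestine sum the order was the same except that *tulp1*-dKO sample 2 and wt sample 3 changed places. The match did not hold in full for the single liver marker *fabp10a*. By that gene *tulp1*-dKO sample 2 (795 TPM) stood below wt samples 1 and 3 (846 and 926 TPM), with the rest of the order the same. The pancreas sum was likewise lowest in *tulp1*-dKO sample 1 and highest in *tulp1*-dKO sample 3. Which of these tissues the P450 total followed was not tested. *tulp1*-dKO sample 1 was the lowest of the 6 samples in 28 of the 70 members (40%), against 13.35% of all genes tested. *tulp1*-dKO sample 3 was the highest in 28 members (40%), against 18.35% of all genes. In a fit with the log2 liver sum as a covariate, added after the data were seen, the slope on the liver sum was above 0 in 58 of 70 members (82.9%) and in 43.6% of all genes. The sum of the *cyp2p* genes did not keep the order of the liver sum. It was 20.8, 35.4 and 35.1 TPM in *tulp1*-dKO samples 1, 2 and 3, against 17.0, 21.8 and 17.7 TPM in wt samples 1, 2 and 3. In the covariate fit, *cyp2p6*, *cyp2p7*, *cyp2p8* and *cyp2p9* still had slopes on the liver sum above 0 (0.84, 0.83, 1.22 and 0.55, where the median of the members was 0.40), while that of *cyp2p10* was −0.07.

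**Figure D1:**
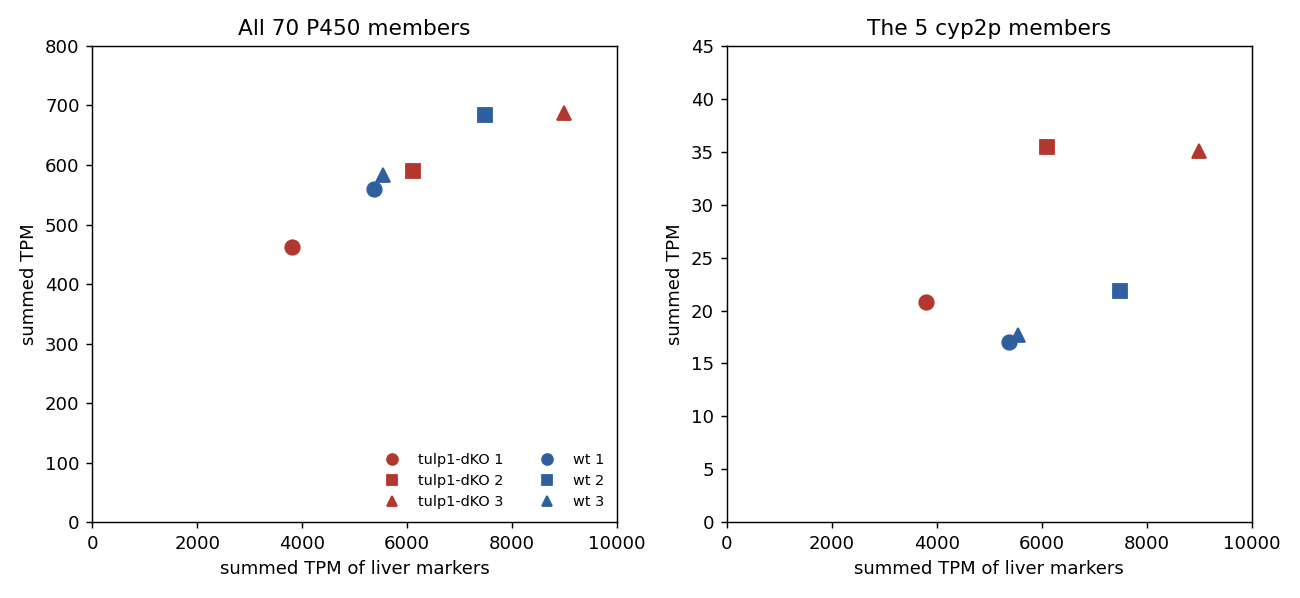
Summed TPM of all 70 P450 members (left panel) and of the 5 *cyp2p* members (right panel) against the summed TPM of the liver markers, with 1 point for each of the 3 *tulp1*-dKO (red) and 3 wt (blue) samples and linear axes from 0. The left panel runs from 462 TPM in *tulp1*-dKO sample 1 to 688 TPM in *tulp1*-dKO sample 3 in the order of the liver sum, while in the right panel *tulp1*-dKO samples 2 and 3 lie at 35.4 and 35.1 TPM, above every wt sample.

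Across the members, 2 of 70 passed the thresholds (2.86%), where 1.32% of all genes tested did. These were *cyp2p10*, higher in *tulp1*-dKO (0.364% of all genes passed in that direction), and *cyp24a1*, lower (0.96% of all genes). At an unadjusted p of at most 0.05 there were 20 members (28.6%), 13 higher and 7 lower, against 17.1% of all genes, with 10.1% higher and 6.97% lower. The groups did not overlap in 21 members (30%), 14 with every *tulp1*-dKO sample above every wt sample and 7 with every one below, against 23.5% of all genes, with 14.6% above and 8.86% below. Both counts of higher members include *cyp2x10.2*, *cyp2aa4* and *cyp2aa3*, which passed the 0.5 TPM limit only through *tulp1*-dKO. No member passed it only through wt, so the limit favours the higher side for these 3, and how much of the excess this makes up was not tested. With a minimum mean of 2 TPM, which leaves them out, 17 of 53 members were at an unadjusted p of at most 0.05 by limma. This was 32.1%, against 17.6% of all genes, and 10 of the 17 were higher. Of the 20 members, 2 higher and 4 lower lie in an array of 11 members on chromosome 20, described below. In an array of 9 members on chromosome 23 lie 3 higher and 2 lower. The non-overlapping groups split in the same way in both arrays. Neighbours may share reads, so these are not all independent, and their part in the excess was not tested. The members had a median of 0.13 in log2 fold change, against 0.05 for all genes, and 39 members (55.7%) had a positive log2 fold change, against 58.1% of all genes. Without *tulp1*-dKO sample 3 the median of the members was −0.01, and without *tulp1*-dKO sample 1 it was 0.32. All log2 fold changes are on the log2(TPM + 0.1) scale, which understates the change of genes at low levels.

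Levels spanned a wide range. The most abundant member was *cyp2ad3*, at a mean of 66.3 TPM over the 6 samples, followed by *cyp3c1* at 37.1 TPM, *cyp2y3* at 30.3 TPM and the retinoic acid hydroxylase *cyp26b1* at 29.8 TPM. In total, 23 members had a mean of at least 10 TPM and 9 a mean below 1 TPM. The lowest members were *cyp2aa3* at 0.513 TPM and *cyp17a2* at 0.607 TPM, and just outside the limit lay *cyp2aa11* at 0.362 TPM and *cyp2aa9* at 0.352 TPM. For *cyp2x10.2*, *cyp2aa4* and *cyp2aa3* the wt mean was below 0.5 TPM, so these 3 passed the limit only through their *tulp1*-dKO values, and no member passed only through wt.

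**Figure D2:**
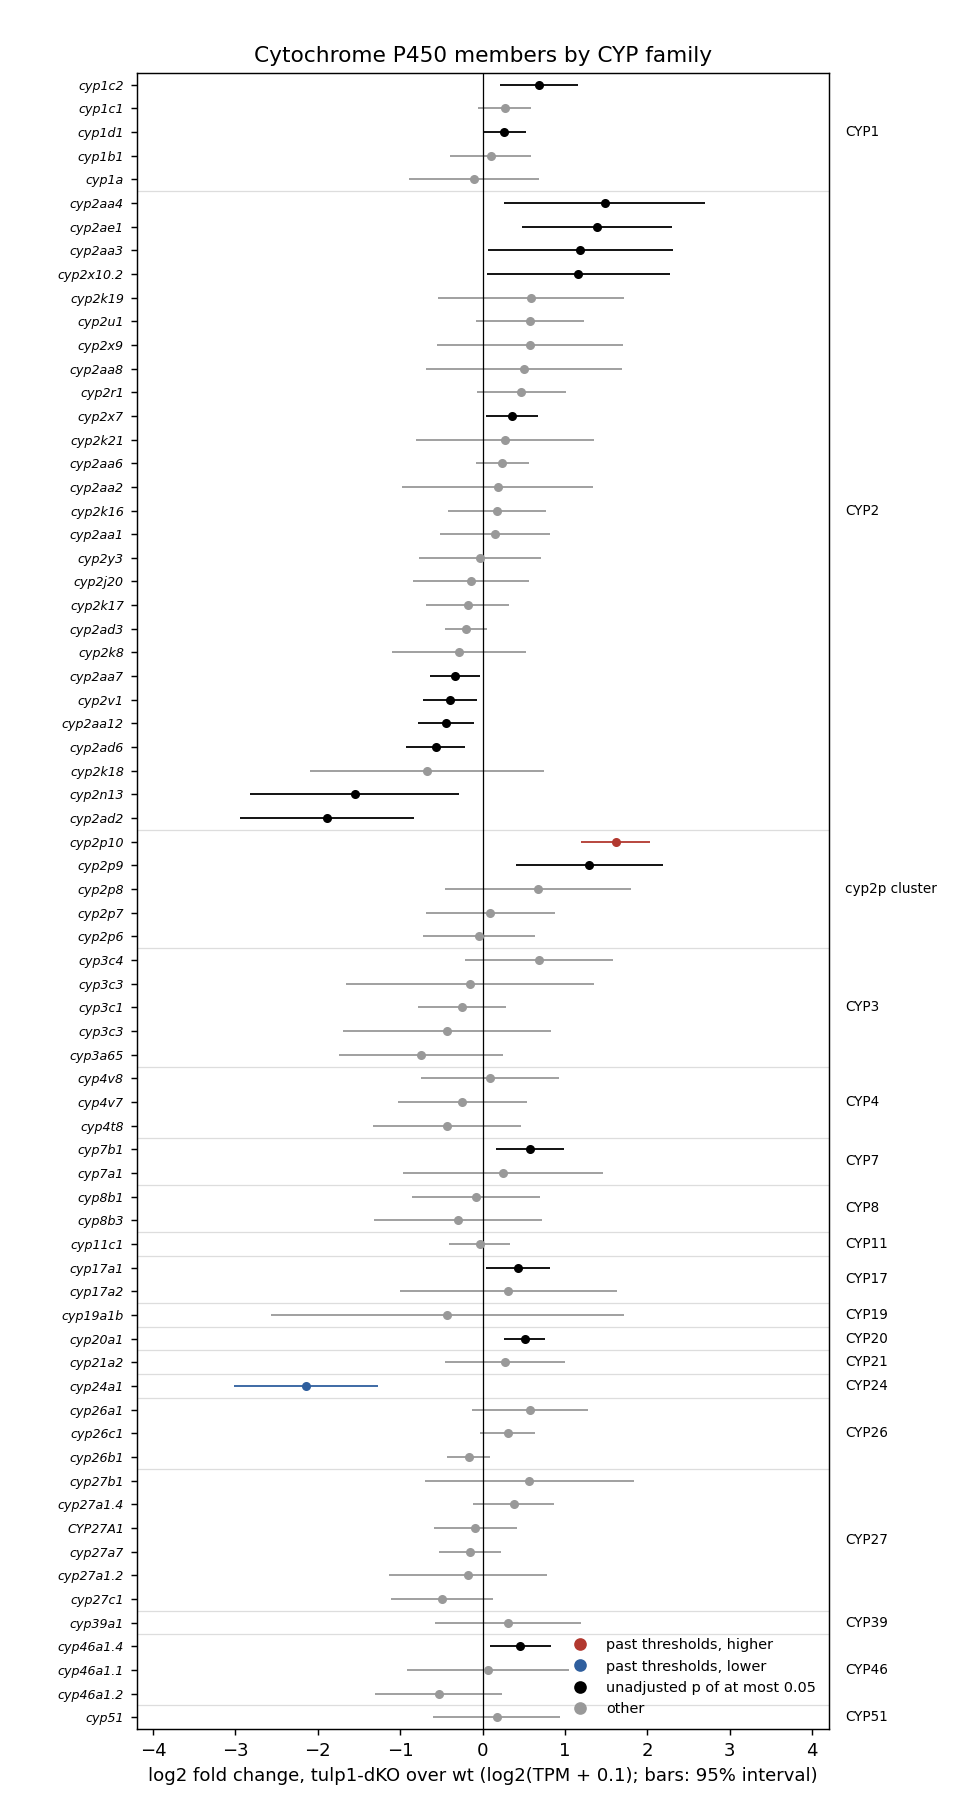
Log2 fold change of each of the 70 members, *tulp1*-dKO over wt, on the log2(TPM + 0.1) scale, grouped by CYP family, with bars for the 95% interval from the limma fit (3 samples per group). *cyp2p10* (red, 1.62) and *cyp24a1* (blue, −2.14) passed the thresholds, black points had an unadjusted p of at most 0.05, and the members in grey had a larger p.

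In the *cyp2p* cluster, every *tulp1*-dKO sample lay above every wt sample in *cyp2p9* and *cyp2p10*, of which *cyp2p10* passed the thresholds. *cyp2p10* (ENSDARG00000042990) was at 7.75, 9.18 and 8.16 TPM in *tulp1*-dKO samples 1, 2 and 3, against 3.30, 2.24 and 2.52 TPM in wt samples 1, 2 and 3. The lowest *tulp1*-dKO value was above the highest wt value by more than the whole range within either group. The log2 fold change was 1.62 (SE 0.18, adjusted p = 0.00874), and it stayed between 1.5 and 1.77 with any 1 sample left out. The adjusted p was 0.0650 without *tulp1*-dKO sample 2 and 0.0509 without *tulp1*-dKO sample 3, so the call was lost without either of these, and it was 0.0431 without *tulp1*-dKO sample 1. *cyp2p9* (ENSDARG00000022631) was at 3.91, 7.08 and 4.55 TPM in *tulp1*-dKO, against 1.74, 3.42 and 1.30 TPM in wt. Its groups did not overlap, but they spread more, and its log2 fold change of 1.29 (SE 0.38) did not pass the adjusted threshold (adjusted p = 0.153).

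The other *cyp2p* genes overlapped between the groups. *cyp2p8* was at 2.15, 5.88 and 8.86 TPM in *tulp1*-dKO and 3.25, 2.38 and 3.48 TPM in wt, so that *tulp1*-dKO samples 2 and 3 lay above every wt sample and *tulp1*-dKO sample 1 below them all (log2 fold change 0.67, SE 0.48). *cyp2p7* was at 2.68, 4.72 and 4.87 TPM in *tulp1*-dKO and 2.44, 5.11 and 4.03 TPM in wt (log2 fold change 0.10, SE 0.33). *cyp2p6* was at 4.32, 8.57 and 8.61 TPM in *tulp1*-dKO and 6.31, 8.65 and 6.35 TPM in wt (log2 fold change −0.04, SE 0.29). For these last 2 genes the 95% intervals ran from −0.69 to 0.88 and from −0.72 to 0.64, so changes within those ranges were not excluded by these samples. Because reads may be shared within the cluster, sums were also fitted as single entries, after the data were seen. For *cyp2p9* plus *cyp2p10* the log2 fold change came to 1.47 (SE 0.19, adjusted p = 0.0175), and for all 5 to 0.66 (SE 0.22, adjusted p = 0.199).

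The *cyp2p* genes stand inside a longer array. In the RefSeq gene table of assembly GRCz12tu, a later assembly than the one the reads were mapped to and used here for gene order only, 11 members follow each other on chromosome 20 with no other gene between them. Their order is *cyp2n13*, *cyp2ad6*, *cyp2ad2*, *cyp2v1*, *cyp2ad3*, *cyp2p6*, *cyp2p7*, *cyp2p8*, *cyp2p9*, *cyp2p10* and *cyp2j20*. Along that order the log2 fold changes were below 0 in the first 6 genes, above 0 in the next 4 and −0.14 in *cyp2j20*, the last. Every *tulp1*-dKO sample lay below every wt sample in the first 4 genes (8.86% of all genes did), and the groups overlapped in the next 4. Every *tulp1*-dKO sample lay above every wt sample in *cyp2p9* and *cyp2p10* (14.6% of all genes did). The groups overlapped again in *cyp2j20*, the relative of mammalian CYP2J. Since reads may be shared between these neighbours, their values may not be independent.

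Of these first 4 genes, *cyp2ad2* and *cyp2n13* differed most. *cyp2ad2* (ENSDARG00000021172) was at 2.39, 4.66 and 8.95 TPM in *tulp1*-dKO samples 1, 2 and 3, against 13.03, 22.1 and 18.6 TPM in wt samples 1, 2 and 3 (log2 fold change −1.89, SE 0.45, adjusted p = 0.0966). *cyp2n13* (ENSDARG00000042953) was at 2.26, 8.44 and 9.41 TPM in *tulp1*-dKO and 11.6, 22.8 and 18.1 TPM in wt (log2 fold change −1.55, SE 0.54, adjusted p = 0.207). Within each group both genes were lowest in the sample with the lowest liver marker sum. With the liver sum as a covariate, their log2 fold changes were −1.84 (adjusted p = 0.00453) and −1.503 (adjusted p = 0.0473), and both then passed the thresholds. This fit, added after the data were seen, was the only passing setting, 1 of 16 for *cyp2ad2* and 1 of 15 for *cyp2n13*. Without the covariate and with any 1 sample left out, the adjusted p was 0.0619 to 0.266 for *cyp2ad2* and 0.237 to 0.424 for *cyp2n13*. For both genes summed, without the covariate, the log2 fold change was −1.71 (SE 0.49, adjusted p = 0.144).

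The differences of the other array genes were smaller. *cyp2ad6* was at 9.92, 10.7 and 13.2 TPM in *tulp1*-dKO and 16.4, 19.1 and 14.8 TPM in wt (log2 fold change −0.57, adjusted p = 0.122). *cyp2v1* was at 8.75, 11.7 and 11.2 TPM in *tulp1*-dKO and 13.3, 14.8 and 13.3 TPM in wt (log2 fold change −0.40, adjusted p = 0.211). *cyp2ad3*, the most abundant P450 of these samples, was at 55.1, 62.9 and 67.1 TPM in *tulp1*-dKO and 72.1, 76.2 and 64.4 TPM in wt. Its groups overlapped through *tulp1*-dKO sample 3 and wt sample 3 (log2 fold change −0.20, SE 0.11). Summed over the 11 genes, the array was at 101, 138 and 148 TPM in *tulp1*-dKO and 147, 180 and 151 TPM in wt.

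**Figure D3:**
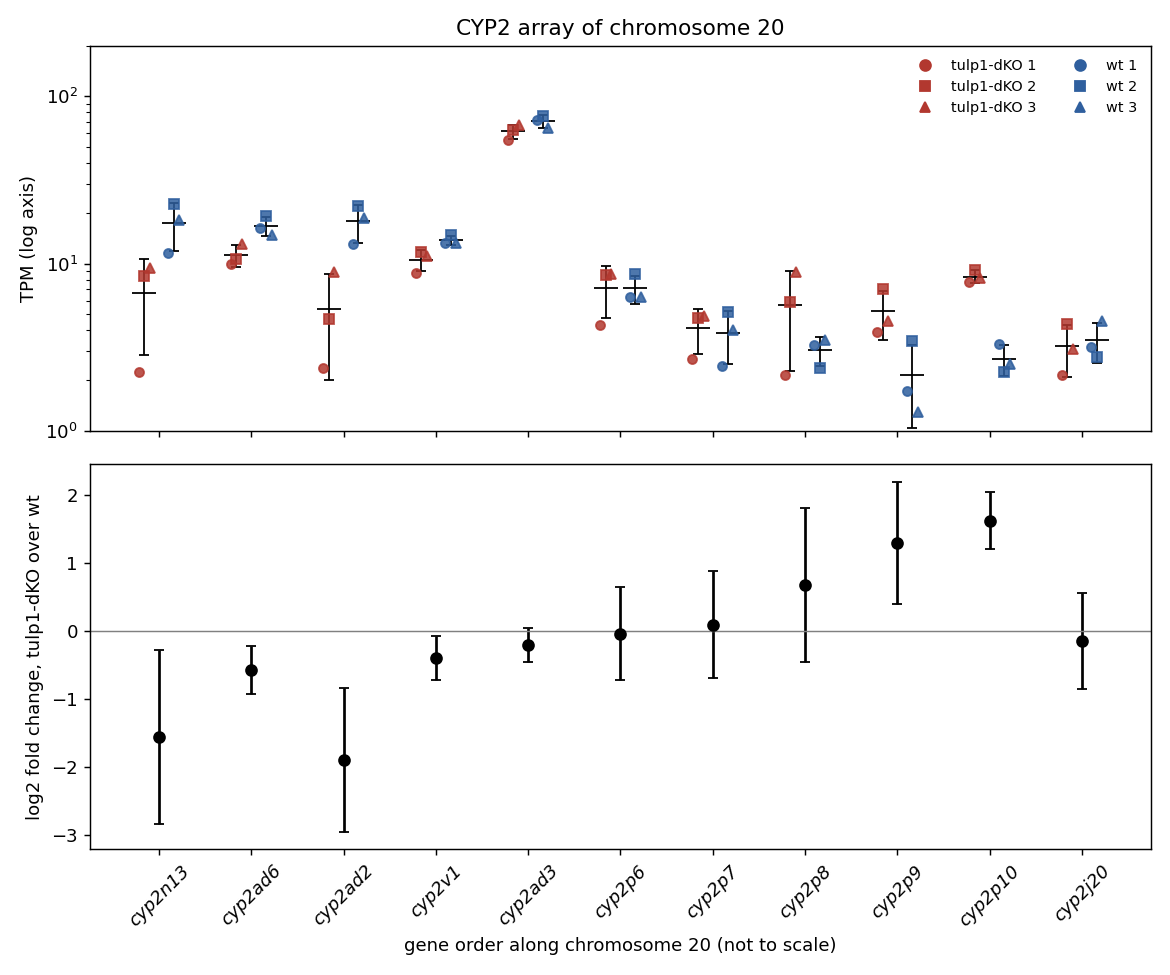
The 11 consecutive CYP2 genes of chromosome 20 in gene order (not to scale), with TPM per sample on a log axis in the upper panel (*tulp1*-dKO red, wt blue, lines at the mean ± SD of 3 samples) and the log2 fold change, *tulp1*-dKO over wt, with its 95% interval in the lower panel. The interval lies below 0 in the first 4 genes, from *cyp2n13* (−1.55) to *cyp2v1* (−0.40), and above 0 in *cyp2p9* (1.29) and *cyp2p10* (1.62) only.

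A second array, on chromosome 23, holds 8 *cyp2aa* members and *cyp2ae1*, with other genes between some of them. It too had members on either side. *cyp2ae1* (ENSDARG00000013524) was at 7.01, 4.78 and 4.48 TPM in *tulp1*-dKO samples 1, 2 and 3, against 1.13, 3.41 and 1.95 TPM in wt samples 1, 2 and 3 (log2 fold change 1.39, SE 0.39, adjusted p = 0.138). Unlike most members it was highest in *tulp1*-dKO sample 1, which had the lowest liver sum. *cyp2aa4* was at 0.69, 1.09 and 2.47 TPM in *tulp1*-dKO and 0.34, 0.35 and 0.46 TPM in wt (log2 fold change 1.48, adjusted p = 0.211), and *cyp2aa3* at 0.90, 0.74 and 0.62 TPM in *tulp1*-dKO and 0.32, 0.27 and 0.23 TPM in wt (log2 fold change 1.19, adjusted p = 0.266). These low levels passed the limit only through *tulp1*-dKO, so their direction is in part set by the limit.

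At higher levels in the same array, every *tulp1*-dKO sample lay below every wt sample in 2 of the 9 array members (8.86% of all genes did). *cyp2aa12* was at 9.61, 11.4 and 11.7 TPM in *tulp1*-dKO and 14.5, 17.2 and 13.01 TPM in wt (log2 fold change −0.45, adjusted p = 0.178). *cyp2aa7* was at 10.9, 13.3 and 13.7 TPM in *tulp1*-dKO and 15.4, 17.5 and 15.0 TPM in wt (log2 fold change −0.34, adjusted p = 0.249). The groups overlapped in the other 4, *cyp2aa6*, *cyp2aa8*, *cyp2aa1* and *cyp2aa2*, with log2 fold changes from 0.15 to 0.50. The sum of the *cyp2aa* genes was 49.5, 57.1 and 68.3 TPM in *tulp1*-dKO and 53.5, 57.6 and 64.6 TPM in wt.

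The 6 *cyp2k* members lie together on chromosome 3, and none had an unadjusted p of at most 0.05 by limma (17.1% of all genes did). They summed to 19.6, 31.9 and 38.0 TPM in *tulp1*-dKO and 25.5, 32.8 and 22.1 TPM in wt. Of the remaining CYP2 members, *cyp2x7* was at 6.68, 7.5 and 6.94 TPM in *tulp1*-dKO and 5.65, 5.99 and 4.83 TPM in wt (log2 fold change 0.36, adjusted p = 0.239). *cyp2x10.2* was at 0.88, 0.96 and 1.24 TPM in *tulp1*-dKO and 0.20, 0.50 and 0.59 TPM in wt (log2 fold change 1.16, adjusted p = 0.271), a gene kept only through its *tulp1*-dKO level. *cyp2y3*, among the most abundant, ranged from 17.5 to 40.1 TPM in *tulp1*-dKO and from 23.6 to 35.8 TPM in wt, with a log2 fold change of −0.03.

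The vitamin D enzymes gave the second member past the thresholds. *cyp24a1* (ENSDARG00000103277), which inactivates the vitamin D hormone and is a target of the vitamin D receptor, was at 4.12, 4.17 and 7.64 TPM in *tulp1*-dKO samples 1, 2 and 3, against 27.5, 31.9 and 13.5 TPM in wt samples 1, 2 and 3. Every *tulp1*-dKO sample lay below every wt sample, and wt sample 3 stood well below the other wt samples. The log2 fold change was −2.14 (SE 0.37, adjusted p = 0.0401). It stayed between −2.52 and −1.90 with any 1 sample left out, but the adjusted p was at most 0.05 only when wt sample 3 was the one left out (0.0252). Without wt sample 1, wt sample 2, *tulp1*-dKO sample 1, *tulp1*-dKO sample 2 or *tulp1*-dKO sample 3 it was 0.171, 0.139, 0.139, 0.165 and 0.0669, in that order. With the variance prior fitted without a trend it was 0.0825, and with the liver sum as a covariate the log2 fold change was −2.12 (adjusted p = 0.0287).

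In the same RefSeq table *cyp24a1* and the targeted gene *tulp1b* are both on chromosome 6, with 23 genes between them. Of those, 18 were tested, none passed the thresholds by limma, and 5 were at an unadjusted p of 0.05 or less (27.8%, against 17.1% of all genes), 1 of them lower in *tulp1*-dKO (5.56%, against 6.97%). *cyp20a1* and *cyp27c1* are on the same chromosome with 1163 and 1182 genes between them and *tulp1b*.

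The enzymes that make the vitamin D hormone did not pass the test. *cyp27b1*, which forms it, was at 1.86, 2.02 and 1.12 TPM in *tulp1*-dKO and 0.90, 2.43 and 0.52 TPM in wt (log2 fold change 0.56, SE 0.54). *cyp2r1*, which carries out the step before, was at 3.79, 4.37 and 3.65 TPM in *tulp1*-dKO and 2.25, 3.87 and 2.55 TPM in wt (log2 fold change 0.47, SE 0.23, adjusted p = 0.363). Of the 22 tested genes in the list of nuclear receptors that regulate P450 genes, none passed the thresholds by limma, and 2 higher and 1 lower had an unadjusted p of at most 0.05 (13.6%, against 17.1% of all genes). The smallest p was that of *vdra*, a vitamin D receptor, at 2.39, 3.98 and 2.61 TPM in *tulp1*-dKO and 0.93, 1.36 and 1.56 TPM in wt (log2 fold change 1.15, SE 0.29, adjusted p = 0.113). The second was *pparab*, a receptor for fatty acids (log2 fold change 0.89, adjusted p = 0.144).

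**Figure D4:**
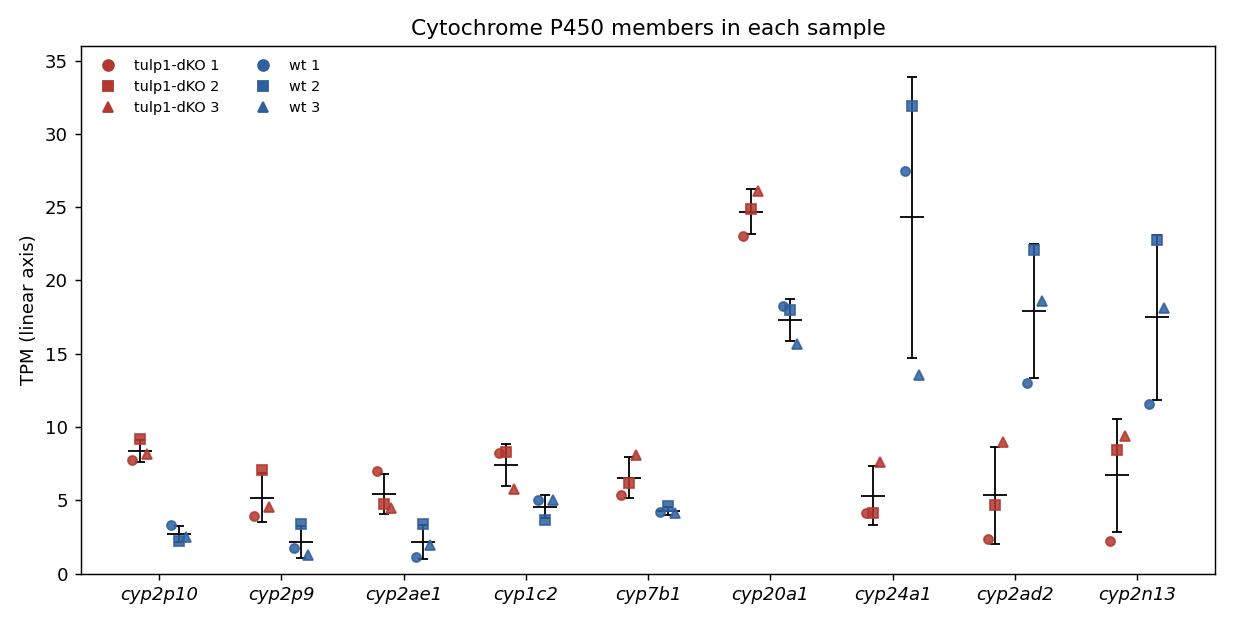
TPM of 9 members, chosen after their values were seen, in each sample on a linear axis from 0, with *tulp1*-dKO (red) left of wt (blue) for each gene and lines at the mean ± SD of 3 samples. *cyp24a1* lies at 4.12 to 7.64 TPM in *tulp1*-dKO and 13.5 to 31.9 TPM in wt. None of the 9 genes has overlapping groups, which follows from the choice. All are among the 21 of 70 members without overlap (30%, against 23.5% of all genes).

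Retinoid enzymes of the CYP26 and CYP27 families did not pass the test. *cyp26a1*, *cyp26b1* and *cyp26c1* break down retinoic acid, which patterns the retina and head. *cyp26b1*, the most abundant, was at 28.2, 26.1 and 29.9 TPM in *tulp1*-dKO and 32.2, 28.0 and 34.7 TPM in wt (log2 fold change −0.17, SE 0.11). *cyp26c1* and *cyp26a1* had log2 fold changes of 0.31 (SE 0.14) and 0.58 (SE 0.30), and the value of *cyp26a1* in *tulp1*-dKO sample 3, 20.01 TPM, was over 10 TPM above its other *tulp1*-dKO values of 9.58 and 9.32 TPM. *cyp27c1*, which turns vitamin A into the dehydro form that shifts photopigments to longer wavelengths, was at 6.03, 4.76 and 4.43 TPM in *tulp1*-dKO and 8.60, 8.79 and 4.76 TPM in wt (log2 fold change −0.49, SE 0.26, adjusted p = 0.398). The 8 markers of the retinal pigment epithelium summed to 268, 231 and 202 TPM in *tulp1*-dKO and 202, 194 and 250 TPM in wt, and their part in the *cyp27c1* values was not tested.

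Of 18 tested genes of the retinoic acid list, none passed the thresholds by limma, and 2, both higher, were at an unadjusted p of 0.05 or less (11.1%, against 10.1% of all genes in that direction). *stra6*, the vitamin A uptake receptor, was at 10.4, 9.48 and 9.88 TPM in *tulp1*-dKO and 5.88, 6.06 and 7.54 TPM in wt (log2 fold change 0.61, adjusted p = 0.0809). *rargb*, a retinoic acid receptor, was at 4.27, 3.29 and 3.36 TPM in *tulp1*-dKO and 1.81, 2.25 and 1.57 TPM in wt (log2 fold change 0.92, adjusted p = 0.0868). Over the list, the median was −0.05 in log2 fold change.

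The CYP1 family, which acts on aromatic pollutants and includes targets of the aryl hydrocarbon receptor, had 5 members and 4 positive log2 fold changes (58.1% of all genes were positive). The family summed to 46.1, 50.9 and 55.8 TPM in *tulp1*-dKO and 40.2, 42.0 and 46.4 TPM in wt. *cyp1c2* was at 8.20, 8.32 and 5.79 TPM in *tulp1*-dKO and 5.03, 3.69 and 5.02 TPM in wt (log2 fold change 0.68, SE 0.20, adjusted p = 0.155), and *cyp1d1* at 10.9, 11.0 and 12.3 TPM in *tulp1*-dKO and 8.89, 9.5 and 10.1 TPM in wt (log2 fold change 0.26, adjusted p = 0.289). *cyp1c1*, the neighbour of *cyp1c2* and the most abundant of the family, had overlapping groups (log2 fold change 0.27, SE 0.14). The classical receptor target *cyp1a* was at 5.79, 9.47 and 15.4 TPM in *tulp1*-dKO and 8.79, 12.3 and 9.82 TPM in wt, the order of the liver sum except that wt sample 3 and *tulp1*-dKO sample 2 changed places (log2 fold change −0.11, SE 0.33). Of 9 tested genes of the receptor's pathway, none passed the thresholds. An unadjusted p of at most 0.05 by limma was found in 1 (11.1%, against 17.1% of all genes). This was *arnt*, the receptor's partner, with a log2 fold change of 0.37 (adjusted p = 0.197). *nqo1*, a quinone reductase and receptor target, had one of 0.25 (adjusted p = 0.302).

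None of the 5 CYP3 and 3 CYP4 members had an unadjusted p of at most 0.05 by limma, where 17.1% of all genes did. With so few members, a count of none says little about these families. CYP3 enzymes, the main drug metabolizers of liver and gut, summed to 41.5, 58.8 and 76.0 TPM in *tulp1*-dKO and 64.1, 101 and 64.4 TPM in wt. The most abundant, *cyp3c1*, was at 26.9, 35.2 and 38.8 TPM in *tulp1*-dKO and 43.2, 49.9 and 28.7 TPM in wt (log2 fold change −0.25, SE 0.23). *cyp3a65* had the lowest log2 fold change of the family, −0.75 (SE 0.42), and 2 entries named *cyp3c3* were kept as separate genes. CYP4 enzymes oxidize the ends of fatty acids, and the human relative of the *cyp4v* genes, CYP4V2, is mutated in a crystalline retinal dystrophy. *cyp4v8*, the most abundant, was at 5.28, 11.4 and 15.2 TPM in *tulp1*-dKO and 8.67, 9.76 and 8.99 TPM in wt (log2 fold change 0.09, SE 0.35).

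Among the P450 members of cholesterol and bile acid metabolism, *cyp7b1* and *cyp46a1.4* had non-overlapping groups. In both, every *tulp1*-dKO sample lay above every wt sample (14.6% of all genes did). *cyp7b1*, which hydroxylates oxysterols, was at 5.37, 6.19 and 8.07 TPM in *tulp1*-dKO and 4.19, 4.61 and 4.11 TPM in wt (log2 fold change 0.57, SE 0.18, adjusted p = 0.166). *cyp46a1.4*, a relative of the enzyme through which neurons remove cholesterol in mammals, was at 8.46, 9.60 and 11.5 TPM in *tulp1*-dKO and 8.17, 6.58 and 6.67 TPM in wt (log2 fold change 0.45, SE 0.16, adjusted p = 0.207). Its paralogs *cyp46a1.1* and *cyp46a1.2* overlapped between the groups, with log2 fold changes of 0.06 and −0.53. *cyp7a1*, the rate-limiting enzyme of bile acid synthesis, was at 2.15, 6.68 and 8.17 TPM in *tulp1*-dKO and 2.85, 6.33 and 3.88 TPM in wt (log2 fold change 0.25, SE 0.52). Its samples stood in the order of the liver sum except that *tulp1*-dKO sample 2 and wt sample 2 changed places. *cyp8b1*, which sets the kind of bile acid made, was at 5.38, 13.6 and 12.1 TPM in *tulp1*-dKO and 9.76, 9.78 and 11.0 TPM in wt (log2 fold change −0.08, SE 0.33). *cyp27a7*, the most abundant CYP27 gene, and *cyp39a1*, an oxysterol hydroxylase, had log2 fold changes of −0.15 (SE 0.16) and 0.31 (SE 0.38).

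*cyp51*, which removes a methyl group from lanosterol in cholesterol synthesis, was at 13.4, 13.1 and 31.7 TPM in *tulp1*-dKO and 15.1, 17.3 and 15.1 TPM in wt (log2 fold change 0.17, SE 0.33). *tulp1*-dKO samples 1 and 2 lay below every wt sample and *tulp1*-dKO sample 3 far above them. Of 23 tested genes of cholesterol synthesis none passed the thresholds by limma, and 1 was at an unadjusted p of 0.05 or less (4.35%, against 17.1% of all genes): *hmgcra*, a form of the rate-limiting reductase, at 4.93, 4.61 and 9.48 TPM in *tulp1*-dKO and 10.2, 11.5 and 12.3 TPM in wt (log2 fold change −0.90, adjusted p = 0.163). Without *tulp1*-dKO sample 3 its log2 fold change was −1.22 (adjusted p = 0.0333). The squalene synthase gene *fdft1* had a log2 fold change of −0.23 (adjusted p = 0.347). In *hmgcra* and *fdft1*, 2 of the 23, every *tulp1*-dKO sample lay below every wt sample (8.86% of all genes did). Every *tulp1*-dKO sample lay above every wt sample in 0 of the 23 (14.6% of all genes did). A list of bile acid synthesis and transport that holds no P450 member had 8 tested genes. None of them had an unadjusted p of at most 0.05 by limma (17.1% of all genes did). The smallest p were those of the bile salt exporter *abcb11a*, with a log2 fold change of 0.21 (adjusted p = 0.515), and of *hsd3b7*, with one of −0.27 (adjusted p = 0.532).

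Steroid hormone enzymes were at low to middle levels. *cyp17a1*, which commits steroids to cortisol and sex hormones, was at 4.23, 3.68 and 3.44 TPM in *tulp1*-dKO and 2.56, 3.02 and 2.75 TPM in wt (log2 fold change 0.43, SE 0.16, adjusted p = 0.243). *cyp11c1* and *cyp21a2*, which act later in cortisol synthesis, had overlapping groups, with log2 fold changes of −0.04 (SE 0.16) and 0.27 (SE 0.31). *cyp11a1* and *cyp11a2*, the enzymes of the first step, were below the limit, at means of 0.0983 and 0.348 TPM. The 4 tested interrenal markers, *star*, *nr5a1a*, *hsd3b1* and *fdx1b*, all had positive log2 fold changes (58.1% of all genes did). They summed to 26.2, 22.0 and 28.5 TPM in *tulp1*-dKO and 13.4, 19.7 and 17.5 TPM in wt, while the receptor *mc2r* was at 0 in every sample. Of these sums, *fdx1b* alone made up 18.8, 12.65 and 17.7 TPM in *tulp1*-dKO and 10.45, 10.31 and 14.1 TPM in wt. The groups overlapped in *fdx1b*, *star* and *hsd3b1* and not in *nr5a1a*. The part of these markers in the *cyp17a1* values was not tested. Of 9 tested genes in a steroid synthesis list that holds no P450 member, none had an unadjusted p of at most 0.05 by limma (17.1% of all genes did). Outside that list, *cyp17a1* and *fdx1b* had an unadjusted p of 0.033 and 0.041 by limma. *nr5a1a*, a regulator of these genes, and *star*, the cholesterol carrier, had log2 fold changes of 0.98 (adjusted p = 0.329) and 1.04 (adjusted p = 0.342).

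*cyp19a1b*, the aromatase of radial glia in the fish brain, had the largest SE of all members. It was at 4.32, 10.4 and 0.70 TPM in *tulp1*-dKO samples 1, 2 and 3, against 4.05, 2.5 and 8.33 TPM in wt samples 1, 2 and 3. The groups overlapped over most of their range, and the log2 fold change was −0.43 with an SE of 0.91 and a 95% interval from −2.57 to 1.71. The 10 markers of Muller and radial glia summed to 3216, 2885 and 2883 TPM in *tulp1*-dKO and 3087, 2909 and 2867 TPM in wt. Their part in the *cyp19a1b* values was not tested. *cyp20a1*, an enzyme with no settled substrate, had the smallest p after the 2 members past the thresholds. It was at 23.04, 24.9 and 26.1 TPM in *tulp1*-dKO and 18.3, 18.0 and 15.7 TPM in wt, with no overlap. The log2 fold change was 0.51 (SE 0.11, adjusted p = 0.0674), and the adjusted p lay between 0.0641 and 0.217 over all alternatives.

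P450 enzymes need electrons from partner proteins. Of 14 tested partner and haem-binding genes, none passed the thresholds by limma, and 4 (28.6%), all higher, were at an unadjusted p of 0.05 or less, against 10.1% of all genes in that direction. *cyb5b*, a cytochrome b5, was at 23.5, 26.3 and 25.3 TPM in *tulp1*-dKO and 20.6, 19.96 and 18.8 TPM in wt (log2 fold change 0.34, SE 0.09, adjusted p = 0.135). *cyb5r3*, its reductase, was at 29.6, 27.5 and 28.3 TPM in *tulp1*-dKO and 22.9, 22.95 and 23.6 TPM in wt (log2 fold change 0.30, SE 0.08, adjusted p = 0.139). The other 2 were *fdxr* and *fdx1b*, the mitochondrial reductase and a ferredoxin, with log2 fold changes of 0.35 and 0.49. *pora* and *porb*, which supply the microsomal enzymes, had log2 fold changes of −0.03 and −0.19 and overlapping groups.

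Genes that act beside P450 enzymes were read in the same way. Of 9 tested genes that release arachidonic acid or open its epoxides, none passed the thresholds. Only 1 had an unadjusted p of at most 0.05 by limma (11.1%, against 17.1% of all genes). This was *ephx2*, the soluble epoxide hydrolase, at 10.3, 14.1 and 17.1 TPM in *tulp1*-dKO and 8.30, 9.98 and 8.85 TPM in wt (log2 fold change 0.58, adjusted p = 0.189). *pla2g6*, a phospholipase, had a log2 fold change of −0.20 (adjusted p = 0.361). The P450-related synthases that carry other names were *tbxas1*, for thromboxane, with a log2 fold change of 0.52 (adjusted p = 0.181), and *ptgis*, for prostacyclin, with one of −0.12 (adjusted p = 0.796).

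Conjugating enzymes couple the products of P450 enzymes to sugars, sulfate or glutathione. Of 49 tested, 1 passed the thresholds, where 1.32% of all genes did (0.96% lower). By limma, 5 higher and 4 lower had an unadjusted p of at most 0.05 (18.4%, against 17.1% of all genes). *ugt2a6*, a glucuronosyltransferase, was lower, at 0.30, 0.85 and 0.75 TPM in *tulp1*-dKO samples 1, 2 and 3, against 4.06, 3.41 and 3.51 TPM in wt samples 1, 2 and 3. The groups were far apart, and the log2 fold change was −2.45 (SE 0.37, adjusted p = 0.0268). Its adjusted p was 0.136, 0.103 and 0.0732 without wt samples 1, 2 and 3, 0.0690 and 0.0704 without *tulp1*-dKO samples 2 and 3, and at most 0.05 only without *tulp1*-dKO sample 1 (0.0250). The log2 fold change lay between −2.68 and −2.06 in those fits.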

How the data were processed

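Heads of 3 *tulp1*-dKO and 3 wt samples were sequenced on an Illumina NovaSeq. The authors used HISAT2 to map reads to GRCz11 and RSEM for the counts per gene, and deposited TPM values made from them, 1 per gene and sample, to 2 decimals; versions are not given in the sources used here. TPM keeps no depth, so precision was taken from the spread between samples.

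The DESeq2 test of the study needs counts and was not repeated. log2(TPM + 0.1) of genes averaging 0.5 TPM or more entered a linear model comparing *tulp1*-dKO with wt (limma 3.58.1 under R 4.3.3; moderated with a trend), with p adjusted by Benjamini-Hochberg over all 22824 genes. Genes were called at an adjusted p of 0.05 or less and a log2 fold change of 1 or more in either direction, as in the study's methods. The fit was also run on simulated data with noise drawn separately for each gene. That simulation held no difference shared by many genes of a sample, so it did not test that case. Python 3.11.15 served for the tables (pandas 2.3.3, numpy 2.4.6) and plots (matplotlib 3.10.9).

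The members and lists were chosen with earlier results of these data known. Lists of partner, pathway and marker genes were written from general knowledge. Named genes are the *cyp2p* members, members past the thresholds or at an unadjusted p of 0.05 or less, the most abundant member of each family, single members of a family, and of each list the genes past the thresholds or else the 2 with the smallest p, with *tulp1a* and *tulp1b*. Others, such as *cyp27b1*, *cyp2r1*, *cyp27c1*, *cyp7a1*, *cyp1a*, *pora* and *porb*, were named for their role after their values were seen. Gene order came from RefSeq GRCz12tu, where 64 of 70 members had a chromosome; no coordinates are given, since the assembly differs. Primers are from the study's supplement.

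The alternatives were quantile normalization, scaling by median ratios, other pseudocounts (0.5 and 1), other filters (none, and a mean of 2 TPM), moderation without a trend, a block for the replicate number, leaving out each sample, and calling by the adjusted p alone. A liver covariate and summed paralogs were added after the data were seen. With a sample left out, a group of 2 was assumed to vary like the other. Same-numbered samples of the groups correlated at 0.029 to 0.032 in their deviations from the group means, and samples of different number at −0.0206 to −0.0105. These values are all small and the labels state no pairing, so the main fit did not pair samples. Whether the numbers stand for a shared batch is not known.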

Additional observations from a re-analysis of the deposited data

How the results depend on the processing

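Member calls rested on few samples. The 2 calls held under both other pseudocounts, both filters and both scalings. Calling by the adjusted p alone only drops the fold threshold, so it could not lose these 2 calls, and it added no member. eBayes without trend also gave 2, but called *cyp2p10* and *cyp2aa3* (log2 fold change 1.19, adjusted p = 0.0412) and not *cyp24a1*. With each sample left out the count was 0 to 2 members, and over all genes 99 to 226, where all samples gave 302, the lowest without wt sample 1. Without *tulp1*-dKO sample 2 or sample 3 it was 0 members, with 14 and 17 at an unadjusted p of 0.05 or less. The liver covariate gave 4 members. As a replicate block, the shared number gave 134 genes and 0 members, with 16 members at an unadjusted p of 0.05 or less; *cyp2p10* then had an adjusted p of 0.0619 and *cyp24a1* of 0.144. Among the 56 genes named by the rule, signs turned only for log2 fold changes near 0 or widely spread, with 1 sample left out: *cyp11c1* ran from −0.19 to 0.056, *cyp19a1b* from −1.26 to 0.60, *cyp2p6* from −0.20 to 0.29, *cyp2p7* from −0.19 to 0.37, *cyp4v8* from −0.23 to 0.52, *cyp51* from −0.25 to 0.38, *cyp8b1* from −0.33 to 0.33 and *ptgis* from −0.23 to 0.024. Genes named for their role, such as *cyp1a* and *cyp7a1*, were not checked in this way. The causes were not tested. Of 835 values of 56 named genes, 800 kept direction and side of the threshold. Most of these genes were not called with all samples, so for them this mainly meant staying uncalled. Among the called genes, the call was lost in 7 of 15 settings for *cyp24a1*, 6 of 15 for *ugt2a6* and 3 of 16 for *cyp2p10*. It was lost in 0 of 15 for *tulp1b*. Depth is unknown, and 9 members below 1 TPM are the least certain.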

Other observations

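Of the 87 entries named cyp, 17 were below the limit and 2 of them were at 0 in all samples, *cyp46a1.3* and a second entry named *cyp2y3*. *cyp19a1a*, the aromatase of the ovary, was at 0.05 TPM in *tulp1*-dKO sample 1 and at 0 in the other 5 samples. *cyp2k22*, also below the limit, was at 0 in all *tulp1*-dKO samples and at 0.20, 0.05 and 0.16 TPM in wt samples 1, 2 and 3. The entries *CR354540.1* and *FO904880.1* are described as cytochrome P450 genes but carry no cyp name and were not members. *CR354540.1*, described as a *cyp7a1* relative, was at 0.42, 0.68 and 0.67 TPM in *tulp1*-dKO samples 1, 2 and 3, against 0.50, 0.57 and 0.49 TPM in wt samples 1, 2 and 3. *FO904880.1*, described as like CYP2J6, was at 1.49, 0.75 and 0.68 TPM in *tulp1*-dKO and 0.87, 1.21 and 0.33 TPM in wt.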
